A study of Mus musculus with 6 samples.

Results

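The 9 genes described here encode 3 Janus kinases (Jak1, Jak3 and Tyk2) and 6 STAT factors (Stat2, Stat3, Stat4, Stat5a, Stat5b and Stat6). They were taken by gene symbol from a table of 15944 genes, in which each symbol matched 1 row, and all 9 were measured in all 6 libraries. The libraries are bulk RNA-seq of Tregs, the Foxp3-bearing CD4+ lymphocytes that hold other immune cells in check, sorted from the spleens of C57BL/6 mice, which the series description calls naïve. The first sort, RORγt+ Treg, held CD3+CD4+ cells positive for a red Foxp3 reporter and a green RORγt reporter, and the second, CCR6+RORγt- Treg, held CD3+CD4+ cells positive for the Foxp3 reporter and for the chemokine receptor CCR6 but negative for the RORγt reporter. Each sort has 3 libraries, and all of them share both reporters, the strain and an enrichment for CD4+ cells before sorting. The sort of the first group set no gate on CCR6, so the groups differ in that too. No source used here gives the animals' age or ties libraries to separate animals, so the p-values measure the spread between libraries, which may be technical.

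Janus kinases are tyrosine kinases held on the inner tails of cytokine receptors. When a cytokine draws receptor chains together, the kinases phosphorylate the receptor, STAT proteins dock there and are phosphorylated in turn, and STAT pairs move to the nucleus and switch on target genes, among them genes of the inhibitors that shut the pathway off. In Tregs, IL-2 acts through Jak1, Jak3 and the STAT5 proteins and is needed for Foxp3 and for survival, while IL-6 and IL-23 act through Stat3, which is known for inducing RORγt. The comparison asks whether Tregs with RORγt differ from CCR6+ Tregs without it in the transcripts of this relay; activity of these proteins depends on phosphorylation, which RNA does not measure.

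Values are the authors' normalized counts. Column totals lay between 11325902 and 11890770. Steps between low values imply roughly 10800000, 11400000 and 9220000 counted reads in RORγt+ replicates 1, 2 and 3. In CCR6+RORγt- replicates 1, 2 and 3 they imply 11200000, 12600000 and 14500000. RORγt+ replicate 3 stood apart: its highest correlation with any other library on the log2 scale was 0.938, where the other 5 libraries reached 0.964 to 0.967, and it had 1247 genes at 0 against 438 to 638 in the other 5. It also had 1435 normalized counts of Ikzf2, a transcription factor of most Tregs, which lay between 4784 and 7969 in the other 5. In all 6 libraries the defining T cell and Treg transcripts were abundant, with Foxp3 at 10835, 11072 and 12609 normalized counts in RORγt+ Tregs and 9914, 10187 and 9790 in CCR6+RORγt- Tregs. Cd3e lay between 5409 and 8913 over the same libraries. Markers of other cells were also present. The myeloid markers Cd14 and Adgre1 and the red cell marker Hbb-bs were not among the measured genes. The lowest gene mean was 1.15 normalized counts, so no measured gene could be at 0 in all libraries. The 6 B cell markers summed to between 7126 and 10786 normalized counts in RORγt+ libraries and between 8299 and 10388 in CCR6+RORγt- libraries, mostly from Ighm, followed by Cd74. Cd79b lay between 151 and 223 over the 6 libraries, while Ms4a1 did not exceed 66.2 in any library. The 4 NK cell markers, led by Eomes and Klrb1c, summed to between 69.9 and 92.3 in RORγt+ libraries and between 45.5 and 81.3 in CCR6+RORγt- libraries. The 2 CD8 T cell markers, Cd8a and Cd8b1, summed to between 116 and 152 in RORγt+ libraries and between 99.0 and 183 in CCR6+RORγt- libraries. The 6 γδ T cell markers, led by Trdc and Trgc1, summed to between 181 and 238 in RORγt+ libraries and between 132 and 194 in CCR6+RORγt- libraries. Of the 6, 3 pointed up in RORγt+ libraries and 3 down. Groups did not overlap in 2 of them, beside 18.1% of all genes. Trdc had 99.8, 89.2 and 109 in RORγt+ libraries and 51.5, 61.8 and 71.5 in CCR6+RORγt- libraries. Cd163l1 averaged 5.89 in RORγt+ libraries and 0.233 in CCR6+RORγt- libraries. Neither passed the test described below. The 5 measured myeloid markers summed to between 247 and 409 in RORγt+ libraries and between 818 and 970 in CCR6+RORγt- libraries, and Cybb alone made that difference. Cybb, which encodes part of the NADPH oxidase, had 197, 269 and 203 normalized counts in RORγt+ libraries and 798, 917 and 929 in CCR6+RORγt- libraries. The other 4 pointed the other way, at low levels: Itgam averaged 42.2 normalized counts in RORγt+ libraries and 15.5 in CCR6+RORγt- libraries, and Lyz2, whose groups overlapped, 42.9 in RORγt+ libraries and 10.6 in CCR6+RORγt- libraries. Csf1r averaged 7.40 in RORγt+ libraries and 2.53 in CCR6+RORγt- libraries. Itgax, whose groups overlapped too, averaged 4.74 in RORγt+ libraries and 3.64 in CCR6+RORγt- libraries, where replicate 2 was the highest of the 6 at 10.6. The 4 measured red cell markers summed to between 129 and 868 in RORγt+ libraries and between 53.6 and 4267 in CCR6+RORγt- libraries, led by Hba-a2 and Hba-a1. The part of such cells in the values below was not tested. In bulk RNA, fewer cells of a type and less RNA per cell cannot be told apart.

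None of the 9 transcripts differed between the sorts past the test (limma with a mean-variance trend on log2(normalized count + 1), Benjamini-Hochberg adjusted p under 0.05 over all genes), and 1 of them, Stat2, had an unadjusted p under 0.05. Among all genes tested, 90 passed, which is 0.564%, and 10.9% had an unadjusted p under 0.05. The log2 fold changes of the 9 genes, RORγt+ minus CCR6+RORγt-, ran from −0.19 for Stat3 to 0.34 for Stat2, with a median of −0.029 beside −0.011 over all genes. Of the 9, 4 pointed up and 5 down. The groups did not overlap in Stat2 and Stat6, both higher in RORγt+ Tregs, which is 2 of 9 beside 18.1% of all genes (8.31% higher and 9.81% lower). A missed threshold does not show equality, and the 95% intervals give what the data allow. The lowest bound was 0.711-fold, for Stat3, and the highest was 1.66-fold, for Stat5a, so none of the 9 intervals reached a 2-fold difference in either direction.

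**Figure D1:**
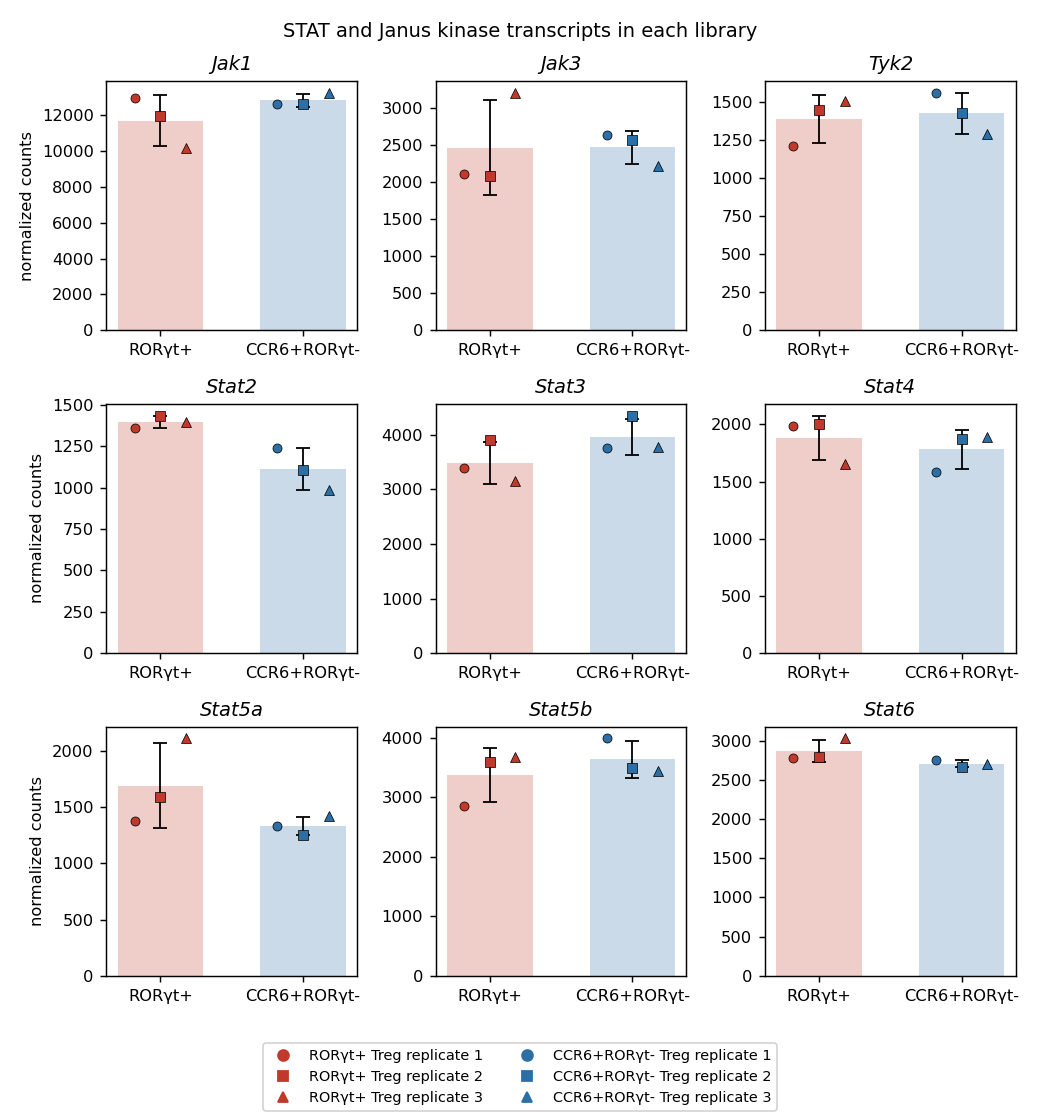
Normalized counts (vertical axes, starting at 0) of the 9 transcripts in each library, with 1 panel per gene, RORγt+ Treg libraries left and CCR6+RORγt- Treg libraries right; bars are means, error bars SD (n = 3), and the marker shape gives the replicate number. The groups are apart in Stat2 and, by a narrow margin, in Stat6, and RORγt+ replicate 3 (triangle) is the highest library for Jak3, Stat5a and Stat6 and the lowest for Jak1 and Stat3.

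To compare the genes with each other, counts were divided by the length of the transcript with the longest coding sequence. On this per-kilobase scale Jak1, the kinase shared by most cytokine receptors of T cells, was the highest of the 9 in every library, at 2383 ± 290 normalized counts per kb in RORγt+ Tregs and 2615 ± 71.9 in CCR6+RORγt- Tregs (SD, n = 3). It stood above 98.3% of the 15851 genes with a length. Stat3 came next by its mean over all libraries, at 771 ± 85.8 per kb in RORγt+ Tregs and 877 ± 74.9 in CCR6+RORγt- Tregs, and the lowest Jak1 library (2072 per kb) was far above the highest Stat3 library (963 per kb). After Jak1 the order was Stat3, Stat6, Stat5b, Stat4, Jak3, Stat5a, Tyk2 and Stat2. Most neighbours in it were not separated: the ranges over the 6 libraries overlapped for Stat3 and Stat6, Stat6 and Stat5b, Stat5b and Stat4, Stat4 and Jak3, Jak3 and Stat5a, and Tyk2 and Stat2. The step from Stat5a (lowest library 348 per kb) to Tyk2 (highest library 323 per kb) held in all 6 libraries, as did that from Jak3 to Stat5a within each library, although the ranges of Jak3 and Stat5a overlapped between libraries. Even Stat2, at 318 ± 8.55 per kb in RORγt+ and 253 ± 28.7 in CCR6+RORγt- Tregs, was above 79.8% of genes.

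**Figure D2:**
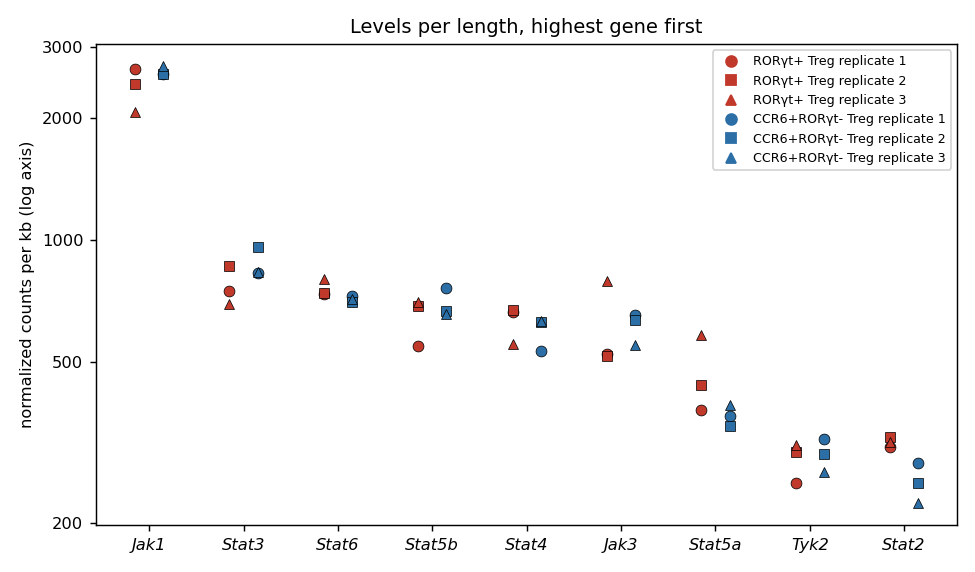
Normalized counts per kb of transcript (vertical log axis) for the 9 genes in order of their mean over all libraries; each point is a library, RORγt+ left of CCR6+RORγt- within a gene. Jak1 lies between 2072 and 2698 in all libraries, neighbouring genes from Stat3 to Stat5a overlap, and Tyk2 and Stat2 lie lowest.

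Among the kinases, Jak1 (chromosome 4, 101152367 to 101265282, minus strand; all coordinates GRCm38) stood at 12977, 11937 and 10163 normalized counts in RORγt+ Tregs, against 12626, 12626 and 13237 in CCR6+RORγt- Tregs. Its groups overlapped, and the lowest library was RORγt+ replicate 3. The estimate of −0.14 ± 0.13 (SE, adjusted p = 0.774) was −0.043 once that library was left out (adjusted p = 0.805). Jak3 (chromosome 8, 71676296 to 71690575, plus strand), which works only with the common γ chain of the receptors for IL-2, IL-7 and related cytokines, had 2105, 2080 and 3198 normalized counts in RORγt+ Tregs and 2625, 2562 and 2211 in CCR6+RORγt- Tregs. The other RORγt+ libraries were below all CCR6+RORγt- libraries, and RORγt+ replicate 3 was the highest of the 6. With it the coefficient of variation in RORγt+ Tregs was 25.9%, the largest of the 9 genes, against 9.04% in CCR6+RORγt- Tregs. The log2 fold change of −0.029 ± 0.19 (SE, adjusted p = 0.979) became −0.23 ± 0.10 when RORγt+ replicate 3 was dropped (adjusted p = 0.306). The gene Insl3 overlaps 404 exonic bases of Jak3 on the same strand and shares 6.92% of its 31-base windows, but lay between 72.9 and 89.7 normalized counts. Tyk2 (chromosome 9, 21104068 to 21131243, minus strand), which serves the receptors for type I interferon, IL-12 and IL-23, had 1213, 1446 and 1508 normalized counts in RORγt+ Tregs against 1559, 1431 and 1292 in CCR6+RORγt- Tregs. These ranges overlapped, and the log2 fold change was −0.042 ± 0.14 (SE, adjusted p = 0.964). An antisense gene, not analysed here, covers 554 exonic bases of Tyk2, and no source used here says whether the counting used strand.

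Stat3 (chromosome 11, 100885098 to 100939540, minus strand), the factor downstream of IL-6, IL-21 and IL-23, stood at 3392, 3907 and 3149 normalized counts in RORγt+ Tregs, against 3753, 4351 and 3778 in CCR6+RORγt- Tregs. RORγt+ replicate 2 reached into the range of the other sort, and the remaining RORγt+ libraries lay below it. The estimate of −0.19 ± 0.13 (SE, adjusted p = 0.693) was negative, between −0.27 and −0.12, under all 15 alternatives run. The 95% interval for this factor, known for inducing RORγt, ran from 0.711- to 1.08-fold in the RORγt+ sort. Stat4 (chromosome 1, 51987148 to 52107189, plus strand), the factor of IL-12 signalling, had 1983, 2006 and 1658 normalized counts in RORγt+ Tregs and 1588, 1873 and 1888 in CCR6+RORγt- Tregs, with overlapping groups and a log2 fold change of 0.077 ± 0.14 (SE, adjusted p = 0.914). A non-coding gene on the same strand, not analysed here, shares 23.7% of the 31-base windows of Stat4, so its value is less certain. Stat6 (chromosome 10, 127642986 to 127660957, plus strand), which acts for IL-4 and IL-13, had the smallest range over the 6 libraries (1.14-fold), at 2784, 2794 and 3027 normalized counts in RORγt+ Tregs and 2752, 2663 and 2705 in CCR6+RORγt- Tregs. The lowest RORγt+ library stood just above the highest CCR6+RORγt- library, and the difference on the log2 scale was 0.083 ± 0.11 (SE, adjusted p = 0.859). Without RORγt+ replicate 3, the highest library, it was 0.043.

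**Figure D3:**
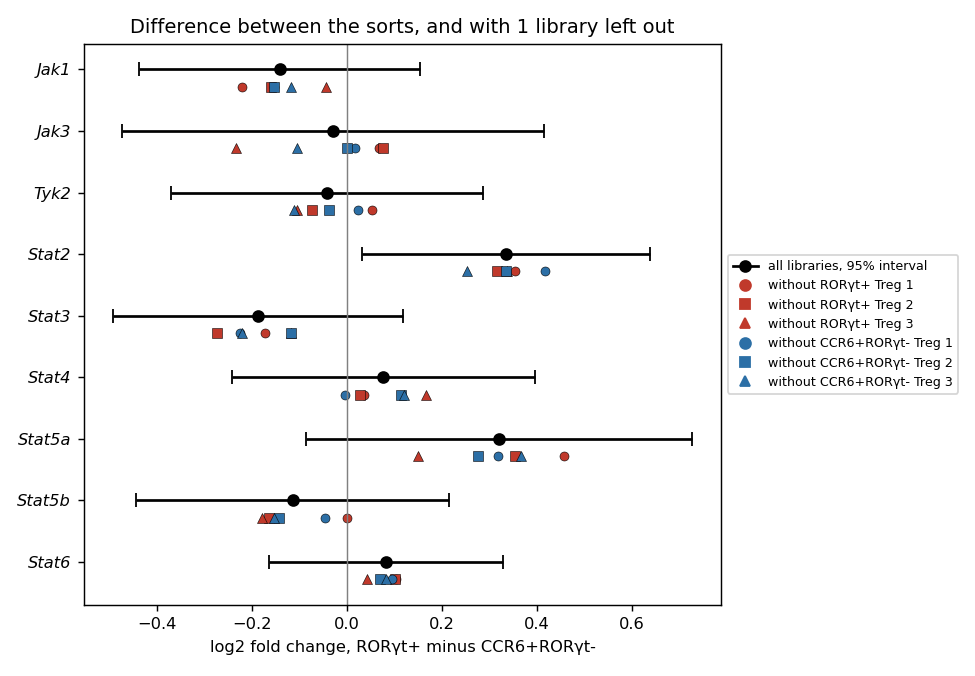
Log2 fold change, RORγt+ minus CCR6+RORγt- (horizontal axis), of the 9 genes; black points and bars are the estimate from all 6 libraries with its 95% interval, and coloured points are the estimates with 1 library left out. Stat2 is the gene whose interval lies above 0, and Jak3, Tyk2, Stat4 and Stat5b have points on both sides of 0.

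Stat5a and Stat5b, the paired factors of IL-2 signalling, lie head to head on chromosome 11. Stat5a (100859351 to 100885169, plus strand) and Stat5b (100780731 to 100850724, minus strand) are 8626 bases apart, and the far end of Stat5a overlaps that of Stat3 on the other strand by 72 exonic bases. Their coding sequences were 90.8% identical over aligned bases, where the other STAT pairs among the 6 ranged from 57.6% to 65.0%. The longest identical run was 324 bases, at coding bases 571 to 894 of both genes counted from the A of the start codon. The following 90-base stretches at either edge of that run show how little separates the genes there, since a read inside the run fits both: coding bases 511 to 600 hold the last 60 bases before the run and its first 30, and coding bases 865 to 954 hold its last 30 and the next 60. Capitals mark the bases that differ, 1 in each stretch.
Stat5a, coding bases 511 to 600: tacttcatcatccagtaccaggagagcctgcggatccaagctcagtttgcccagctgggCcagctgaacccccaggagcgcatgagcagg
Stat5b, coding bases 511 to 600: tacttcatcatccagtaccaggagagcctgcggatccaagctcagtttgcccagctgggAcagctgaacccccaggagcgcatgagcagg
Stat5a, coding bases 865 to 954: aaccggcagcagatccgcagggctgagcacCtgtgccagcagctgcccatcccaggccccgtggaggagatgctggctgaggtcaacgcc
Stat5b, coding bases 865 to 954: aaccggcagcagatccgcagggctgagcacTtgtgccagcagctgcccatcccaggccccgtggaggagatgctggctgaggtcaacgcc
In all, 35.4% of the 31-base windows in the coding sequence of Stat5a also occur in that of Stat5b, between coding bases 178 and 1906. Over whole transcripts the share was 11.5% of the windows of Stat5a and 15.1% of those of Stat5b. The remaining windows can tell the genes apart, but the split of reads from the shared ones rests on the authors' quantification.

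Stat5a had 1374, 1586 and 2107 normalized counts in RORγt+ Tregs, against 1327, 1253 and 1418 in CCR6+RORγt- Tregs. RORγt+ replicate 1 lay inside the range of the other sort, and replicate 3 was the highest library, 0.60 above the mean of the other 5 on the log2 scale. Its estimate of 0.32 ± 0.17 (SE, adjusted p = 0.592) shrank to 0.15 ± 0.11 when that library was dropped (adjusted p = 0.51). Stat5b had 2854, 3592 and 3667 normalized counts in RORγt+ Tregs and 3986, 3484 and 3434 in CCR6+RORγt- Tregs. Its groups overlapped, and the estimate pointed the other way, at −0.11 ± 0.14 (SE, adjusted p = 0.851). Summed to 1 value before the fit, the pair gave a log2 fold change of 0.017 (95% interval −0.32 to 0.35, adjusted p = 0.983).

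The balance within the pair was examined after these values had been seen and is given without a test. The log2 ratio of Stat5a to Stat5b per kb was −0.52, −0.65 and −0.27 in RORγt+ libraries, against −1.05, −0.94 and −0.74 in CCR6+RORγt- libraries. The groups did not overlap, as was so for 18.1% of single genes, and the means differed by 0.44. Their nearest libraries stood at −0.65 and −0.74. RORγt+ replicate 3, the library that stood apart, had the highest ratio (−0.27) and so adds to this difference. Stat5b was the more abundant of the pair per kb in all 6 libraries, by a smaller margin in RORγt+ Tregs. The share of reads that fit both genes applies to both sorts, and its part in this ratio was not tested. The log2 ratio of Stat3 to the sum of Stat5a and Stat5b per kb, which sets the IL-6 and IL-23 factor beside the IL-2 factors, was −0.31, −0.38 and −0.89 in RORγt+ libraries and −0.45, −0.077 and −0.33 in CCR6+RORγt- libraries. The groups overlapped, and the difference of −0.24 was within the spread between libraries (exact two-sided permutation p = 0.5, where 3 against 3 allows no p below 0.1). Without RORγt+ replicate 3 the difference was −0.060.

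**Figure D4:**
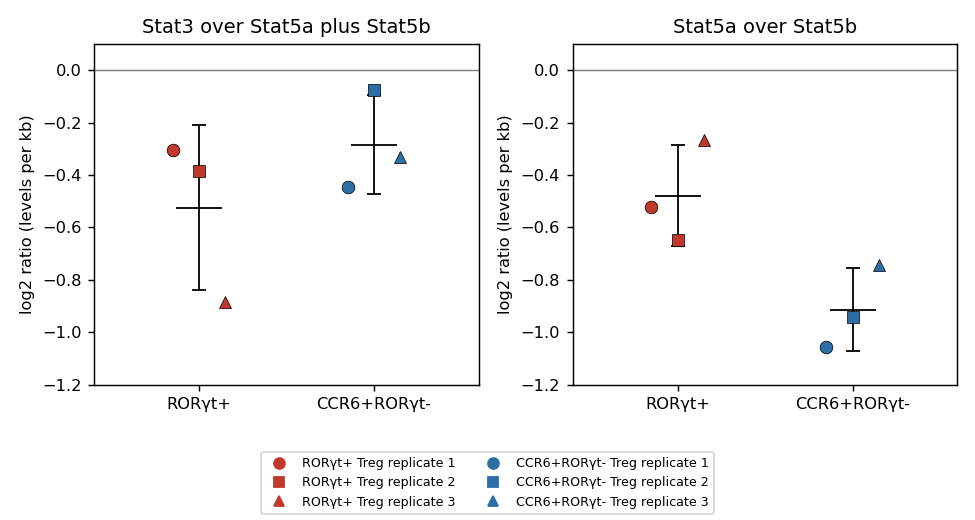
Log2 ratios of levels per kb in each library (vertical axes), with Stat3 over the sum of Stat5a and Stat5b at left and Stat5a over Stat5b at right; horizontal marks are means and error bars SD (n = 3). RORγt+ replicate 3 is lowest at left (−0.89), and at right the RORγt+ libraries (−0.65 to −0.27) lie above the CCR6+RORγt- libraries (−1.05 to −0.74).

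Stat2 (chromosome 10, 128270559 to 128292849, plus strand) works with the factor Irf9 in the complex that answers type I interferon. It came closest to a difference, with 1360, 1435 and 1395 normalized counts in RORγt+ Tregs, against 1240, 1106 and 987 in CCR6+RORγt- Tregs. Every RORγt+ library was above every CCR6+RORγt- library, as 8.31% of all genes were, and the RORγt+ libraries were close together, with a coefficient of variation of 2.69% against 11.4% in CCR6+RORγt- Tregs. The log2 fold change was 0.34 ± 0.13 (SE, unadjusted p = 0.0341, adjusted p = 0.409), a 1.26-fold difference with a 95% interval of 1.02 to 1.56. Over the 15 alternatives it ran from 0.25 to 0.42 with adjusted p from 0.182 to 0.81. RORγt+ replicate 3 did not set this value, which was 0.34 without it.

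The promoter of Stat2 is shown because interferon-responsive genes often carry a motif made of GAAA, any 2 bases and GAAA again, and Stat2 was the member closest to a difference. The following 300 bases run from 250 before to 50 after the start of the gene in RefSeq (GRCm38.p6, chr10:128270248-128270547, plus strand), with the match in capitals. The motif lies on the minus strand, so that it reads as its reverse complement here, 222 bases before the start.
Stat2 promoter: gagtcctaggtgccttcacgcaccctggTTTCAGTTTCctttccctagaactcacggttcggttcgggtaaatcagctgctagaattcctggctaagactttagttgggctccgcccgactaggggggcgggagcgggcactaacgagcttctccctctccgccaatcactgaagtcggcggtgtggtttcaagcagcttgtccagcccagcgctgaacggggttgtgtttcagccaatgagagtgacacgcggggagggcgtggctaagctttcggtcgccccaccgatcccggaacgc
Of 32851 mouse promoter windows of this length, 3.44% hold it on either strand. Among the promoters of the 9 genes, all of which matched by symbol, only that of Stat2 and the second listed promoter of Stat4 held it. The STAT motif TTCNNNGAA, which reads the same on both strands, was in 8.3% of all windows and in none of those of the 9 genes. A match is a string of letters and no evidence of binding, and the windows do not cover more distant elements.

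By a fixed rule, the 3 genes whose library-to-library pattern was most like that of Stat2 were sought among 9049 genes with a mean of at least 100 normalized counts, by the root mean square difference of log2 deviations over the 6 libraries. They were Gak, a kinase of clathrin uncoating (difference 0.037), the mitochondrial enzyme fumarate hydratase, Fh1 (0.040), and the ubiquitin ligase Rnf166 (0.050). Like Stat2 they were lowest in CCR6+RORγt- replicate 3, at 1781 normalized counts for Gak, 312 for Fh1 and 693 for Rnf166. The choice by likeness to Stat2 all but fixed this, so it is a description and no evidence of a link. None of the 3 passed the test of limma (adjusted p = 0.481 for Gak, 0.575 for Fh1 and 0.435 for Rnf166).

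The other genes of the relay were read from 8 lists of receptors, inhibitors and target genes, in which some genes occur more than once. Of 68 measured genes, each counted once, 3 were higher in RORγt+ Tregs by the test, 0 were lower and 65 missed the threshold, which is 4.41% called beside 0.564% over all genes (0.32% higher and 0.245% lower). The 3 were the receptor Il23r, the inhibitor Socs2 and the receptor Il18r1, and the lists were chosen with earlier results of these data known. The count of 0 lower genes depended on the settings: with array weights Ptpn11 (adjusted p = 0.0186), Ifng (0.01) and Tbx21 (0.0439) passed as lower, and without RORγt+ replicate 3 Ptpn11 (0.0395) and Ifng (0.0259) did. Groups did not overlap in 24 of the 68 (35.3%, against 18.1% of all genes).

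Among receptors of the IL-2 and common γ chain family, none of 8 passed, and the list median was 0.099. Il2ra, the high-affinity IL-2 receptor chain, had 9625, 8021 and 7070 normalized counts in RORγt+ Tregs, against 5609, 6333 and 6396 in CCR6+RORγt- Tregs. These groups did not overlap, at a log2 fold change of 0.42 ± 0.14 (SE, adjusted p = 0.349). Il9r, the receptor for IL-9, had an estimate of 1.29 ± 0.35 (adjusted p = 0.231), and Il7r of 0.45 (adjusted p = 0.54). Among IL-6 and IL-12 family receptors, 1 of 7 rose and the median was 0.14. Il23r, the IL-23 receptor chain that pairs with Il12rb1 and signals through Stat3, had 15.6, 13.9 and 18.8 normalized counts in RORγt+ Tregs and 0, 0 and 0.83 in CCR6+RORγt- Tregs (log2 fold change 3.79 ± 0.55, adjusted p = 0.0361). With CCR6+RORγt- libraries at or near 0 the pseudocount set the size of this estimate, which was 6.26 with a pseudocount of 0.1 and 2.0 with 5. It rested on few reads, and its call was lost when any of the 6 libraries was left out (adjusted p between 0.0599 and 0.169). The partner chain Il12rb1 stood at 0.76 ± 0.26 (adjusted p = 0.354), and the IL-6 receptor Il6ra at −0.15 (adjusted p = 0.726). The IL-27 receptor Il27ra stood at 0.14 (adjusted p = 0.809), and at 0.033 without RORγt+ replicate 3. Among 6 interferon and IL-10 receptors none passed, and the median was 0.070. Ifnar2, a chain of the type I interferon receptor, had an estimate of −0.35 (adjusted p = 0.343), Ifngr2, a chain of the interferon-γ receptor, 0.64 (adjusted p = 0.364), and Il10ra 0.32 (adjusted p = 0.576), which was 0.17 without RORγt+ replicate 3.

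Of 18 inhibitors, 1 rose and none fell, and the median was −0.11. Socs2, induced by STAT5 and known for damping growth hormone and cytokine signals, had 868, 819 and 840 normalized counts in RORγt+ Tregs, against 265, 370 and 298 in CCR6+RORγt- Tregs. The groups were far apart, at a log2 fold change of 1.45 ± 0.16 (SE, adjusted p = 0.0157). Leaving out RORγt+ replicate 1 or 2, or any CCR6+RORγt- library, took its adjusted p above the threshold (0.0575 to 0.111), and without RORγt+ replicate 3 it was 0.0221. The estimate itself lay between 1.34 and 1.58 in these 6 fits. Socs3, the inhibitor that Stat3 induces, had 1166, 1463 and 1370 normalized counts in RORγt+ Tregs against 920, 918 and 846 in CCR6+RORγt- Tregs, and its estimate of 0.57 ± 0.13 did not pass (adjusted p = 0.171). Ptpn11, the phosphatase SHP2, pointed down at −0.58 ± 0.12 (adjusted p = 0.128), and Socs5 at −0.77 ± 0.25 (adjusted p = 0.313).

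Target genes known from T cells were grouped by factor. Of 12 STAT5 targets, Socs2 rose and 11 did not pass, with a median of 0.18; the kinase Pim1, which is on the STAT3 list too, stood at 2909, 3069 and 2788 normalized counts in RORγt+ Tregs against 1957, 2215 and 1873 in CCR6+RORγt- Tregs (0.54 ± 0.12, adjusted p = 0.138). Of 9 STAT3 targets, Il23r rose and 8 did not pass, with a median of 0.015. Estimates were positive for 5 of the 9 and negative for 4. The aryl hydrocarbon receptor Ahr, a sensor of dietary and microbial ligands, had 553, 594 and 431 normalized counts in RORγt+ Tregs, against 184, 260 and 246 in CCR6+RORγt- Tregs. Its groups did not overlap, and the estimate of 1.19 ± 0.20 missed the threshold (adjusted p = 0.0617). Of 5 STAT4 targets, the IL-18 receptor chain Il18r1 rose, with 2909, 3256 and 2607 normalized counts in RORγt+ Tregs against 1060, 1325 and 1363 in CCR6+RORγt- Tregs (1.23 ± 0.15, adjusted p = 0.0219). Its call was lost when any library but RORγt+ replicate 3 was left out (adjusted p between 0.0933 and 0.13), and without that library it was 0.0171. Its estimate lay between 1.11 and 1.31 in these 6 fits. The remaining STAT4 targets were split. Il18rap, its partner chain, had an estimate of 0.80 ± 0.20 (adjusted p = 0.208). The cytokine gene Ifng had 1.04, 2.97 and 7.43 normalized counts in RORγt+ Tregs against 34.6, 36.5 and 33.0 in CCR6+RORγt- Tregs (−3.12 ± 0.57, adjusted p = 0.0812). Over the 15 alternatives Ifng ran from −3.65 to −2.23 and passed in 3 of them, array weights, the fit without RORγt+ replicate 3 and a pseudocount of 5 (adjusted p = 0.0405). The type 1 factor Tbx21 had an estimate of −1.24 ± 0.36 (adjusted p = 0.267). Of 15 genes that interferon induces through Stat2 and its partners, none passed, and the median was 0.031. The highest estimate among the 3 named was for Ifit3 (0.53 ± 0.18, adjusted p = 0.35), which shares 61.8% of its 31-base windows with its copy Ifit3b. Rtp4 (0.37, adjusted p = 0.373) and Zbp1 (0.28, adjusted p = 0.458) followed. The groups did not overlap in these 3 of the 15 genes, beside 18.1% of all genes.

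**Figure D5:**
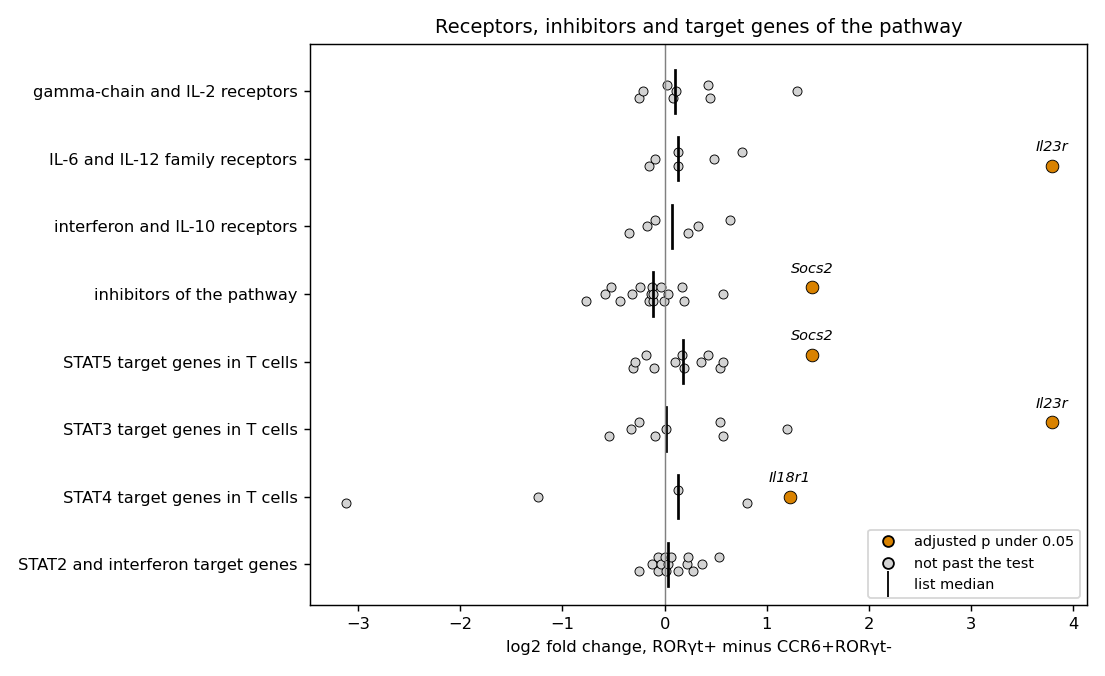
Log2 fold change, RORγt+ minus CCR6+RORγt- (horizontal axis), of the genes in 8 lists of the pathway; each point is a gene, orange points passed the test, and vertical marks are list medians. The medians lie between −0.11 and 0.18, and the genes that passed are Il23r, Socs2 and Il18r1, of which Il23r and Socs2 stand in 2 lists each.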

How the data were processed

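Libraries were grouped by their titles, 3 per sort. The authors deposited a table with 1 signal value per gene and library, which from the values are normalized counts and not raw counts, since they have 2 decimals and near-equal column totals. The submitters' processing notes list Salmon 1.2.0, DESeq2 (version not listed) and GRCm38, but not what each did; no source used here states a filter or an annotation release. Of 15944 rows, 1842 had no symbol, and 1789 of these were named from the reference table. The lowest gene mean among these rows was 1.15 normalized counts, so shares of all genes cover no gene below that mean.

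No low genes were filtered out, and log2(value + 1) was fitted with limma 3.58.1 under R 4.3.3: a model with 1 term for the sort, moderated variances following the mean-variance trend, two-sided p-values and Benjamini-Hochberg adjustment across the whole table at 0.05. Fold changes are RORγt+ minus CCR6+RORγt- on that scale, which understates changes of low genes. The fit was tested on simulated data. Positions, transcript lengths and 31-base windows came from GENCODE M21 (GRCm38), and promoters from RefSeq (GRCm38.p6). Motif searches covered both strands. Proteins were not used here.

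The 9 genes and all lists were chosen with earlier results of these data known. Genes named from a list are those past the threshold and up to 3 more by p, with the 3 genes most like the member of smallest p and the 2 most abundant markers of each other cell type. Some further markers are named too. Intervals are at 95%, and precision is limited by 3 libraries per sort. Alternatives were other pseudocounts, scalings, a mean of at least 10, weights, robust variances, a replicate block and each library left out.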

Additional observations from a re-analysis of the deposited data

How the results depend on the processing

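None of the 9 genes passed under any of the 15 alternatives, or with Stat5a and Stat5b summed, and 127 of 135 gene and alternative pairs kept the sign of the log2 fold change. The 8 that changed sign all left out 1 library, and the estimates then ran from −0.23 to 0.077 for Jak3, from −0.11 to 0.053 for Tyk2, from −0.0040 to 0.17 for Stat4 and from −0.18 to 0.0013 for Stat5b. Over the table, 90 genes passed, 358 with array weights, which gave RORγt+ replicate 3 a weight of 0.199, and between 4 and 174 with 1 library left out: 4, 4 and 174 without RORγt+ replicate 1, 2 or 3, and 8, 10 and 7 without CCR6+RORγt- replicate 1, 2 or 3. With a replicate block, 1 gene passed, none of the 9, and the calls of Socs2 (adjusted p = 0.159), Il18r1 (0.168) and Il23r (0.208) were lost. What lies behind these shifts was not tested. Deviations from the group mean correlated at −0.11, −0.022 and −0.18 between libraries of the same number, and 0 of 6 libraries correlated best with its own number. With 3 libraries per sort, these correlations cannot decide whether libraries of the same number were handled together. Of the 23 named genes of the lists none changed sign, 20 pairs lost a call and 12 gained one. Array weights added Il9r, Ptpn11, Pim1, Ahr, Ifng, Il18rap and Tbx21, leaving out RORγt+ replicate 3 added Ptpn11, Ahr, Ifng and Il18rap, and a pseudocount of 5 added Ifng. Beside the left-out libraries and the block, Il23r lost its call with a pseudocount of 0.1 (adjusted p = 0.119) and was left out by the mean filter. The median standard error of the 2542 genes with a mean of at least 1000 was 0.16 on the log2 scale.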

Other observations

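Summed per kb, the 3 kinases came to 3420, 3250 and 3180 normalized counts per kb in RORγt+ libraries, against 3550, 3508 and 3516 in CCR6+RORγt- libraries. The groups did not overlap in this sum, as in 9.81% of all genes in the same direction, but they overlapped in each of the 3 kinases alone. The 6 STAT factors came to 3391, 3733 and 3660 in RORγt+ libraries against 3507, 3564 and 3463 in CCR6+RORγt- libraries, with overlap. Jak1 makes up most of the kinase sum. These sums were formed after the values had been seen and carry no test.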
